A study of Mus musculus with 5 samples.

Results

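Eng, Cldn5 and Vcam1 are genes of cell surface proteins of blood vessel endothelium, and all 3 had values among the 4743 genes of the tables. They were taken by gene symbol. Expression was measured by RNA sequencing in muscle of the fore limbs of C57BL/6 mouse embryos at E15.5, with 3 Noggin-deficient samples and 2 wild type control samples. Noggin is an extracellular antagonist: it holds bone morphogenetic proteins (BMPs) away from the cell surface. The sources used here give neither the allele behind the deficiency nor the number, sex or litter of the embryos in a sample, so p-values measure only how far these samples spread, which may be technical in origin. Of 27 skeletal muscle genes 18 had values, and Acta1, of skeletal actin, had 1580.2 to 2357.4 over the 5 libraries. Keratin genes of the epidermis were also well above 0 in every library, as Krt5 shows with 212.6 to 333.9. Since the tables hold a selection of genes, the number with values does not show how much of a tissue the samples held. In Nog, the gene of Noggin itself, the Noggin-deficient samples had 0.42 to 0.49 and the wild type samples 1.99 and 2.

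Endoglin, the product of Eng, is a co-receptor that binds BMP9 and BMP10 and passes them to the receptor ALK1 on endothelial cells. Claudin-5, the product of Cldn5, is the main claudin of endothelial tight junctions, the seals that limit leakage between the cells of the vessel wall. VCAM1 is an adhesion molecule of the immunoglobulin superfamily that binds integrins of leukocytes, and in muscle it is also made by progenitor cells. Eng is also made by stromal cells and Vcam1 by some macrophages, so neither is a marker of vessels alone. Muscle of this age is a mixed tissue, and in such bulk samples more cells of a type and more RNA per cell cannot be told apart.

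The tables set a limit on every p-value below. They hold genes that already differed between these same samples: for 98.2% of the 4743 genes no library of 1 group lay within the range of the other, and 98% of the 3913 genes tested were called, 37.9% as higher and 60.1% as lower in the Noggin-deficient samples. A call is thus near certain for any gene in the tables, and the members are described by their values and the size of their differences. The values are a non-negative expression signal whose unit is not named, so levels are compared between samples and not between genes.

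All 3 members were higher in the Noggin-deficient samples, Cldn5 with the largest difference and Vcam1 with the smallest. The values of Eng were 52.9, 53.9 and 54.4 where Noggin was deficient and 39.3 and 38.6 in wild type. The lowest Noggin-deficient library lay 13.5 above the higher wild type library, and the values within a group spread over at most 1.59. The means were 53.7 ± 0.809 (SD, n = 3) and 39.0 ± 0.509 (SD, n = 2), so that Eng was 37.9% higher.

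The values of Cldn5 were 38.4, 39.8 and 37.4 where Noggin was deficient and 24.8 and 24.0 in wild type. Here too the groups were far apart, with a gap of 12.6 between them against a spread of 2.46 within the Noggin-deficient group. The means of 38.5 ± 1.23 (SD, n = 3) and 24.4 ± 0.537 (SD, n = 2) differed by 57.8% of the wild type level.

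For Vcam1 the Noggin-deficient libraries had 28.8, 29.2 and 27.4 and the wild type libraries 21.7 and 22.1. The groups did not overlap, with a gap of 5.37 between them and a spread of 1.72 within the Noggin-deficient group. The means were 28.5 ± 0.898 (SD, n = 3) and 21.9 ± 0.262 (SD, n = 2), which made Vcam1 30% higher.

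**Figure D1:**
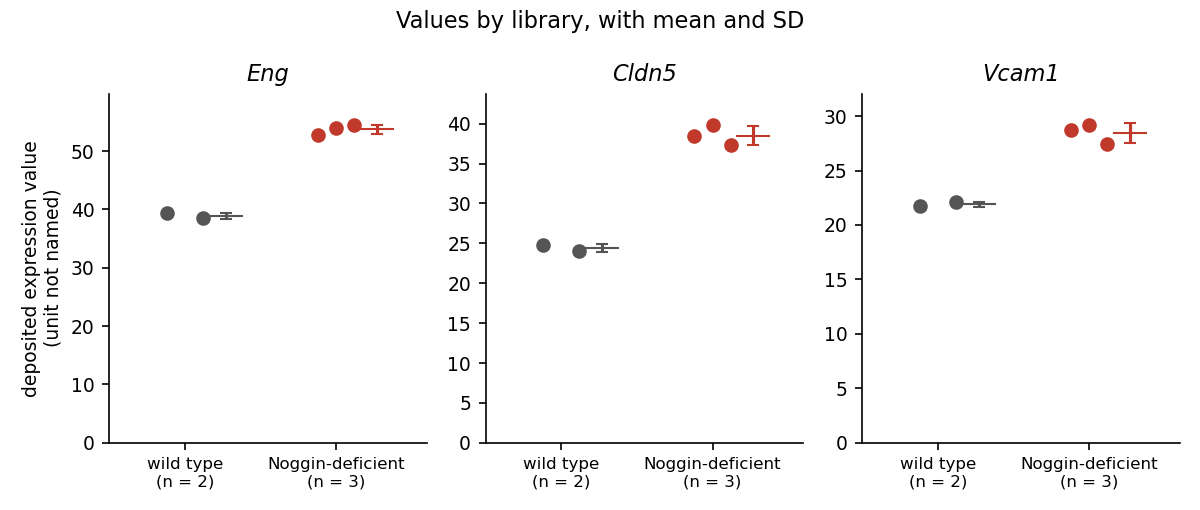
Deposited expression values (unit not named, axes from 0) of Eng, Cldn5 and Vcam1 in each library, with points for libraries and a dash with a bar for the group mean and SD. Every Noggin-deficient library lies above both wild type libraries for each gene, from 52.9 to 54.4 against 38.6 and 39.3 for Eng.

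On the log2(value + 0.25) scale, the change of Eng was 0.46 (95% interval 0.40 to 0.53, limma adjusted p = 3.95e-06). That of Cldn5 was 0.65 (interval 0.57 to 0.73, limma adjusted p = 2.51e-06), and that of Vcam1 was 0.37 (interval 0.29 to 0.46, limma adjusted p = 3.3e-05). An exact permutation test of each gene alone gave p = 0.1, the smallest that 3 samples against 2 allow. No member passed limma's test against a 1.5-fold change (adjusted p = 1 for Eng and Vcam1 and 0.251 for Cldn5). Among the 1484 genes called higher, the median rise was 0.46, so Eng stood in the middle. Of those rises 23.6% were larger than that of Cldn5, and 82.4% were larger than that of Vcam1.

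The promoters of members that rose together are shown as the 250 bases before the RefSeq start of each gene, on the plus strand of GRCm38.p6. The table used for promoters held Eng and Cldn5. Capitals mark matches, on either strand, to AGGAAG, a form of the binding motif of ETS factors, which are active in endothelium, and to CCAAT, the CCAAT box.
Eng, chr2:32646345-32646594: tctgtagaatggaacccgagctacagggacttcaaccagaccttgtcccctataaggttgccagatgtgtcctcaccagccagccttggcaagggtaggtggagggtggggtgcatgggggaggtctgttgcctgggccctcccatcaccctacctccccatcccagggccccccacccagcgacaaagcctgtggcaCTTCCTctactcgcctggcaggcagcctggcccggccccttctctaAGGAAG
Cldn5, chr16:18776597-18776846: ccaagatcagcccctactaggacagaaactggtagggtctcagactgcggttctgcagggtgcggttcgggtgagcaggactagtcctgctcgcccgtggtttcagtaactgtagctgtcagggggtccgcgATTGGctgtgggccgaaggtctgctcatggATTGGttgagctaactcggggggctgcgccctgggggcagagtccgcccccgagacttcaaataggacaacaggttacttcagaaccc
In the Eng window AGGAAG matched at 2 places, beginning 52 and 6 bases before the start, the first on the minus strand. In the Cldn5 window CCAAT matched at 2 places on the minus strand, beginning 118 and 88 bases before the start. Of 32841 such windows in the RefSeq table, 29.5% held AGGAAG and 33.9% held CCAAT. The 2 windows shared none of these matches, and the motif CAGGAA (25.7% of windows), a further ETS form, was in neither. GGCGCC, a motif bound by SMADs under BMP signalling (9.6% of windows), CAGACA, a general SMAD motif (17.1%), AGATAA, the motif of GATA factors (10%), and TATAAA (12.4%) were in neither window. The GC box GGGCGG (32.7%) matched once in Cldn5, 45 bases before the start, and CANNTG, the E-box (66.2%), once in Eng, 189 bases before it. The windows were rich in G and C, at 62.4% for Eng and 59.6% for Cldn5 against a median of 52.4% over all windows.

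How far the members moved together was read from their ratio within a library, which no scaling of libraries can change. On the log2 scale the Cldn5 to Vcam1 ratio was 0.42, 0.45 and 0.44 in the Noggin-deficient libraries against 0.19 and 0.12 in wild type, a difference of 0.28 (exact permutation p = 0.1, two-sided, 0.15 adjusted over the 3 pairs). Cldn5 thus gained on Vcam1 in every Noggin-deficient library. The Eng to Cldn5 ratio was 0.46, 0.44 and 0.54 against 0.66 and 0.68, a difference of -0.19 (exact permutation p = 0.1, adjusted 0.15), with no overlap. The Eng to Vcam1 ratio was 0.87, 0.88 and 0.98 against 0.85 and 0.80, a difference of 0.09 (exact permutation p = 0.2, adjusted 0.2). The SD within the groups was 0.0538, and the groups did not overlap, by a narrow margin of 0.87 against 0.85. With 3 samples against 2 the test cannot go below 0.1, so no pair could be called.

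These differences between members went with transcript length. Over the 3738 tested genes with a length, the median log2 change fell from 0.40 in the shortest eighth to -0.37 in the longest, and 70.1% of the genes in the shortest eighth and 6.2% in the longest were higher in the Noggin-deficient samples. Cldn5 has a short transcript of 1416 bases, in the second eighth, where 63.3% of genes were called higher. Eng at 3422 and Vcam1 at 3469 bases lie in the fifth, where 32.3% were. With the trend on length removed, the changes were 0.62 for Eng, 0.55 for Cldn5 and 0.53 for Vcam1 (limma adjusted p = 1.55e-07, 1.47e-06 and 1.49e-06). The Cldn5 to Vcam1 difference was then 0.01 and the Eng to Cldn5 difference turned to 0.07. Within their own eighths, 14.7% of genes had a larger change than Eng, 13.3% than Cldn5 and 24.6% than Vcam1. As only 32.3% of the fifth eighth were called higher, any rise there lies above most genes. The shares for Eng and Vcam1 follow in part from that and do not set them apart from other rises. The trend averages over rises and falls, so its removal shifts a gene by their mix at its length. The cause of the trend on length was not tested.

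**Figure D2:**
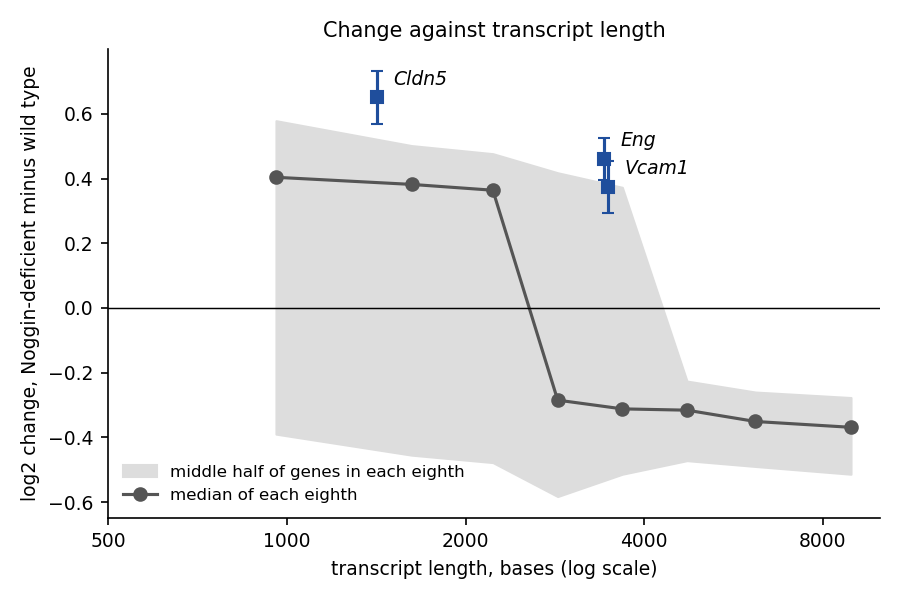
Log2 change (Noggin-deficient minus wild type, vertical axis) against transcript length in bases (log axis) for 3738 tested genes in eighths of length, with line and dots for medians, the grey band for the middle 50% of genes, and squares with 95% intervals for the members. The medians go from 0.40 to -0.37 while Cldn5, the shortest member, has the highest change of the members. All 3 lie above the median at their length, as any rise does in the fifth eighth (median -0.31), which holds Eng and Vcam1.

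Of 47 genes of endothelial identity, 10 had values, and 8 of these rose and 2 fell. Apart from Eng and Cldn5, 6 rose and 2 fell, where 37.9% of all tested genes were called higher and 60.1% lower. The median log2 change of the 10 was 0.47, against -0.28 over all tested genes, most of which fell. It was near the median of 0.46 over all called rises. Gpihbp1, which carries lipoprotein lipase across capillary walls, rose most, by 0.89 on the log2 scale. Its mean was 17.8 ± 0.728 (SD, n = 2) in wild type and 33.2 ± 1.1 (SD, n = 3) where Noggin was deficient. It was the only gene of the list that also passed against a 1.5-fold change. Egfl7, a protein secreted by endothelium, rose by 0.56, Ecscr, an endothelial surface protein, by 0.49, and Vwf, of von Willebrand factor, by 0.47. Icam2, an adhesion molecule, rose by 0.44 and Rasip1, which endothelium needs to form lumens, by 0.36. Eng and Cldn5 thus lay within the range of the other rises.

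The 2 genes of the list that fell were Cd34 and Calcrl. Cd34, of a sialomucin, is also expressed in stromal and blood progenitor cells, and Eng, which rose, is likewise made by stromal cells. Cd34 was at 47.9, 48.4 and 45.5 in the Noggin-deficient libraries against 60.5 and 61.1 in wild type, a log2 change of -0.36. Calcrl, the receptor of adrenomedullin, had -0.40, a change that did not pass under median-of-ratios scaling (-0.14, adjusted p = 0.0715) or with the length trend removed (-0.14, adjusted p = 0.0557). Scaling of whole libraries shrinks every fall in these data by construction, as described below. Pecam1, Cdh5, Kdr, Tek and Tie1, the defining genes of endothelium, were not analysed here, so the vessel content of the samples rests on the 10 genes above.

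Whether the members rose beyond the other endothelial identity genes depended on the reference, each chosen after the data had been seen. Against the mean log2 value of the 8 other genes in the same library, which was itself higher by 0.31, the differences were 0.15 for Eng, 0.34 for Cldn5 and 0.07 for Vcam1 (limma adjusted p = 0.00249, 2.25e-05 and 0.0837, exact permutation p = 0.1, 0.1 and 0.2). That mean was lowered by the falls of Cd34 and Calcrl. Against the median of the same 8 genes (0.47 higher), Eng was at -0.005 and Vcam1 at -0.09, neither of which passed, and Cldn5 at 0.19 (limma adjusted p = 0.941, 0.196 and 0.00765, exact permutation p = 1, 0.1 and 0.1). Against the mean of the 6 genes that rose (0.54 higher), a choice made on the outcome and so given with no test, the values were -0.08 for Eng, 0.115 for Cldn5 and -0.16 for Vcam1. Cldn5 alone of the 3 was above all of these references, and Eng was not above the median of the other endothelial genes. None of the references was adjusted for transcript length. With the length trend removed, Eng was at 0.62 and Cldn5 at 0.55, so Cldn5 no longer stood above Eng. The median of the endothelial list, which includes both, was then 0.47.

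Of 20 genes of arterial, sprouting and venous endothelium 5 had values and all 5 rose, where 37.9% of all tested genes were called higher. Their median of 0.51 was near the median of 0.46 over all called rises. These were genes of artery and sprouting vessels, and the venous genes of the list, such as Nr2f2 and Ephb4, were not analysed here. Gja5, a connexin of arterial endothelium, was at 18.4, 18.1 and 18.1 in the Noggin-deficient libraries against 11.6 and 11.8 in wild type, a log2 change of 0.62. Hey1 and Hey2, arterial transcription factors downstream of Notch and BMP, rose by 0.55 and 0.50, Angpt2, of angiopoietin-2, by 0.51 and Gja4, a further connexin, by 0.39. The 2 lymphatic genes with values, Prox1 and Reln, were lower (-0.33 and -0.29) and did not pass under either scaling or with the length trend removed, which turned them to 0.04 and 0.16. Of the liver sinusoid genes Oit3 rose (0.80) and Dnase1l3 fell (-1.38), both at values of at most 2.21. Stab2 and Clec4g, which mark that vessel type, were not analysed here.

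**Figure D3:**
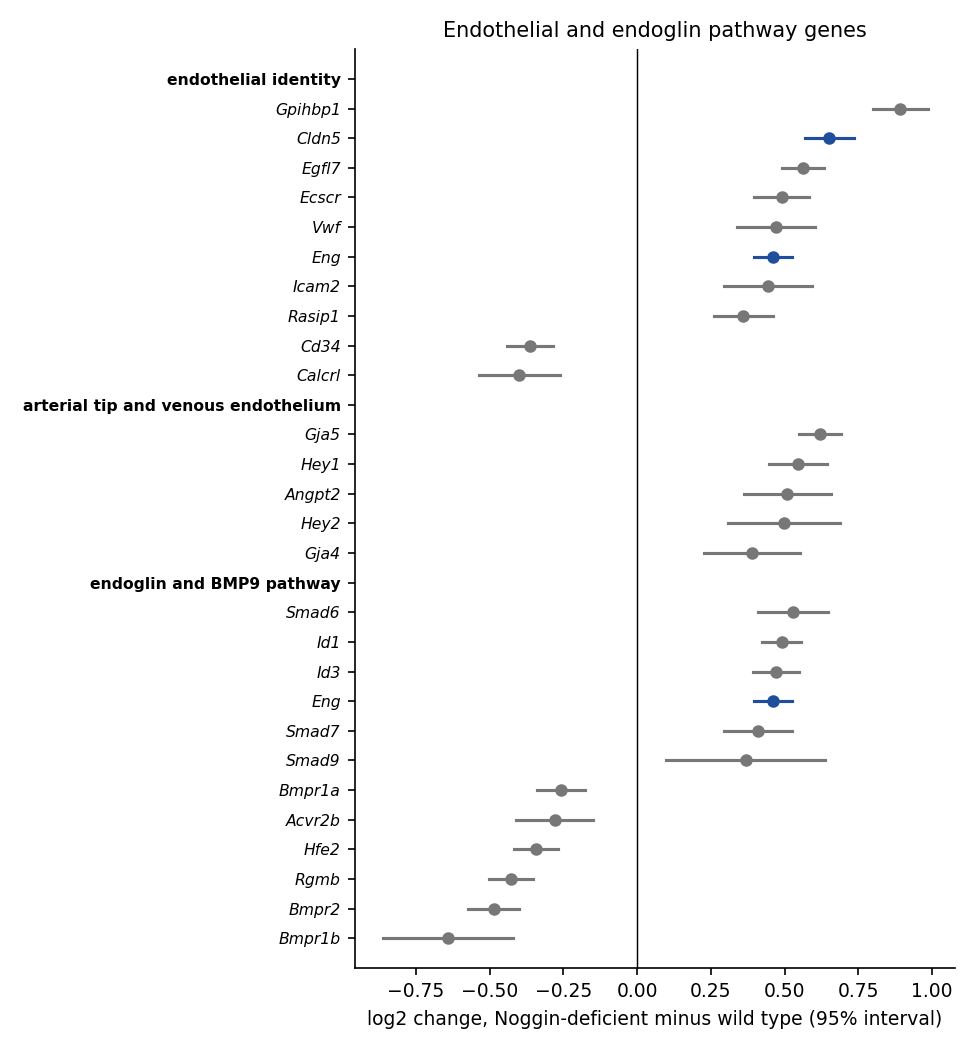
Log2 change (Noggin-deficient minus wild type) with 95% intervals of the tested genes of 3 lists, Eng and Cldn5 in blue. In the endothelial list 8 of 10 genes lie to the right of 0, in the arterial, tip and venous list 5 of 5, and in the endoglin and BMP list 6 of 12. Of all tested genes 37.9% were called higher.

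The list for the BMP9 and endoglin pathway also holds receptors and co-receptors of BMP signalling more widely. Of its 33 genes 13 had values and 12 were tested: 6 rose and 6 fell, with a median of 0.06. Eng was the only tested receptor or co-receptor on it that rose, where 60.1% of all tested genes were called lower. The ligand gene Gdf2, of BMP9, was barely present, with 0.05, 0.05 and 0.01 against 0.01 and 0, and was not tested. The gene of the partner receptor ALK1, Acvrl1, was not analysed here. The receptor genes Bmpr2, Acvr2b, Bmpr1a and Bmpr1b had log2 changes of -0.49, -0.28, -0.26 and -0.64, and the co-receptor genes Rgmb and Hfe2 of -0.43 and -0.34. Those of Bmpr1a and Bmpr2 were 0.05 and -0.02 without the length trend, and Bmpr1a was at 0.01 and Acvr2b at -0.03 under median-of-ratios scaling, none of which passed, and Hfe2 at -0.07 did not pass under that scaling either.

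Downstream of the receptors the changes were positive. Id1 and Id3, inhibitors of basic helix-loop-helix factors that BMP signals induce, rose by 0.49 and 0.47. These rises were close to the 0.46 of Eng, which is also the median over all called rises. Smad6 and Smad7, inhibitory SMADs, rose by 0.53 and 0.41. Smad9, a SMAD that carries BMP signals, rose by 0.37 at values of 0.37 to 0.64. These genes are expressed in endothelium and in other cells of the limb, and their part in the rise of Eng was not tested.

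Of 36 claudin and tight junction genes 20 had values and 19 were tested: 5 rose, Cldn5 among them, and 14 fell, with a median of -0.41. Over all tested genes 37.9% were called higher and 60.1% lower, so the count alone does not set Cldn5 apart. Under median-of-ratios scaling 5 rose and 9 fell. The rises were all claudins, of which 6 others fell: Cldn11 with 0.86, Cldn5, Cldn6 with 0.64, Cldn9 with 0.58 and Cldn15 with 0.54. Apart from Cldn5 these had values of at most 2.33 in any library. Among the claudins that fell were those of surface epithelia. Cldn1, which seals the epidermis, was at 10.2, 9.35 and 9.08 in the Noggin-deficient libraries against 20.1 and 20.9 in wild type, a log2 change of -1.09, and Cldn4 had -0.60. Cldn23 fell most, by 1.29 on the log2 scale.

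The 8 tested genes of other junction proteins fell as well, where 60.1% of all tested genes were called lower. Of the 8 genes, only 4 kept the call under median-of-ratios scaling and 4 with the length trend removed. Ocln, of occludin, had a log2 change of -0.88, Tjp3, of the scaffold ZO-3, -0.78 and Cgn, of cingulin, -1.02, and these 3 passed under both. Tjp1, of the scaffold ZO-1, had -0.41 and was lost with the length trend removed (-0.06, adjusted p = 0.164). The fall of Marveld3 (-0.46), of a further membrane protein of the junction, was lost under median-of-ratios scaling (-0.26, adjusted p = 0.14). Marveld2, of tricellulin, and Pard3 and Mpdz, of scaffold proteins, had -0.36, -0.32 and -0.27 and passed under neither, and Mpdz turned to 0.09 with the length trend removed. All 13 epidermis genes with values fell in the same samples (median -1.30), and their summed value was 1238 to 1283 in the Noggin-deficient libraries against 3013 to 3015 in the wild type libraries. The part of epidermis in the fall of the junction genes was not tested.

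Of 28 genes of VCAM1 adhesion and its regulators 6 had values, Vcam1 included, and 3 rose (Vcam1, Icam1 and Icam2) while 3 fell. As 37.9% of all tested genes were called higher and 60.1% lower, this count does not set the list apart. Icam1, a further adhesion molecule of activated endothelium, had values of 7.28, 7.36 and 6.91 against 5.19 and 5.65, a log2 change of 0.39 that was close to that of Vcam1, and Icam2 rose by 0.44. Rel, a subunit of NF-kB, a factor that induces Vcam1, had values of 0.41 to 1.28 and a log2 change of -0.92. Ezr, of ezrin, and Klf4, a transcription factor of endothelium and epidermis, had changes of -0.65 and -0.73. The integrin genes Itga4 and Itgb1, whose products form the main VCAM1 receptor, were not analysed here, so Vcam1 was not set beside its binding partner.

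Of 27 muscle progenitor genes 6 had values and 5 were tested. Vcam1 rose and 4 fell, with a median of -0.35, where 37.9% of all tested genes were called higher and 60.1% lower. With so few genes this does not set Vcam1 apart from the list. The falls numbered 2 under median-of-ratios scaling and 2 with the length trend removed. Lbx1, a factor of migrating limb muscle precursors, had values of 3.99, 4.21 and 4.73 against 8.14 and 5.90, a log2 change of -0.66. Itga7, a laminin-binding integrin, had -0.31, Met, the receptor of hepatocyte growth factor, -0.35 and Notch1 -0.35. Notch1 turned to 0.06 with the length trend removed, where Met did not pass either, and Met and Itga7 did not pass under median-of-ratios scaling. Pax7, Myf5 and Myod1 were not analysed here, so the share of progenitors could not be read from their defining genes.

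**Figure D4:**
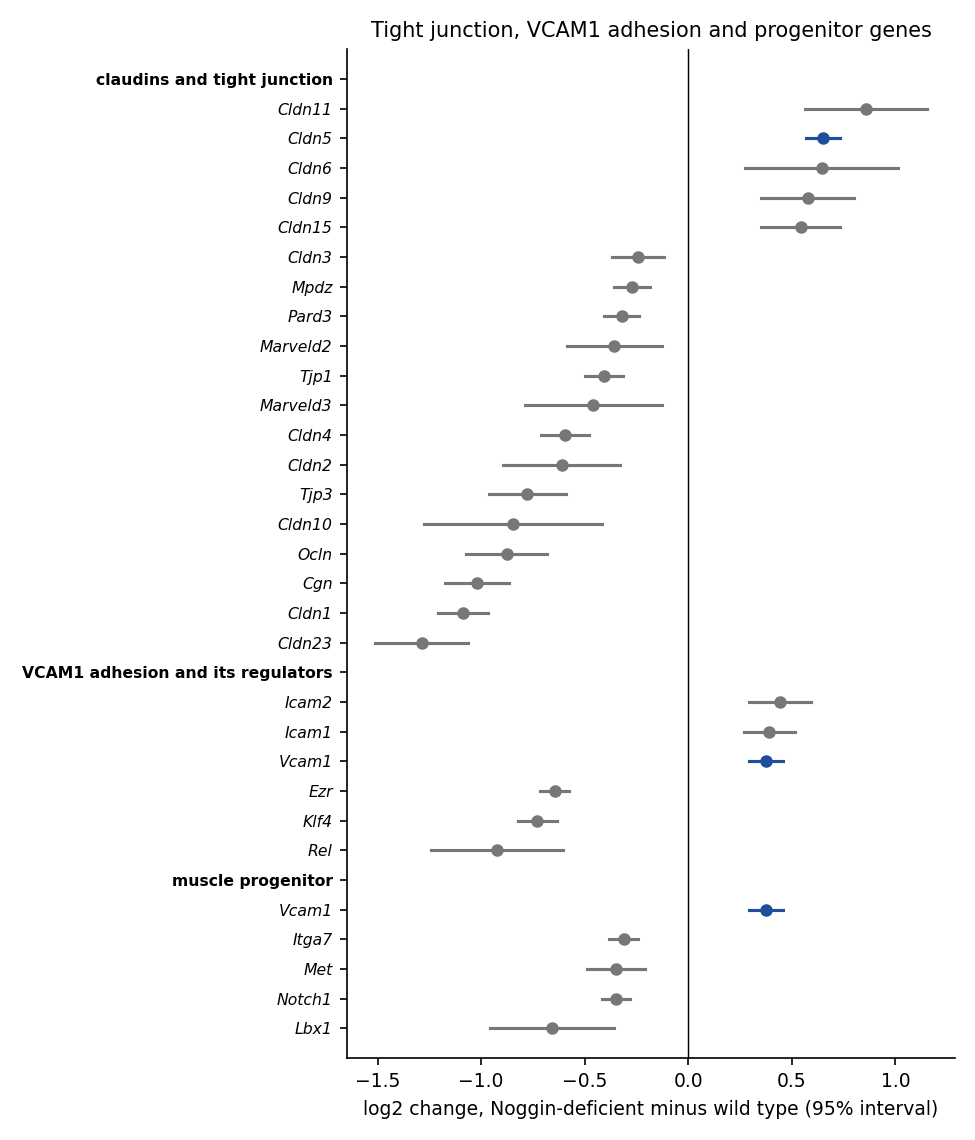
Log2 change (Noggin-deficient minus wild type) with 95% intervals of the tested genes of 3 lists, Cldn5 and Vcam1 in blue. Cldn5 is among 5 of 19 tight junction genes to the right of 0, and Vcam1 is the 1 of 5 progenitor genes there. Of all tested genes 37.9% were called higher.

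Other cell types that can hold Eng or Vcam1 transcripts moved in both directions, where 37.9% of all tested genes were called higher and 60.1% lower. The macrophage and leukocyte genes Cd68, Spi1 and Fcgr1 rose by 0.50, 0.49 and 0.36 and Cd163 had -0.59, and the sum of the 4 of 17 listed genes was 27.6 to 28.1 in the Noggin-deficient libraries against 19.8 to 20.5. Of 8 fibroblast and mesenchyme genes of 17, Twist1 rose by 0.46 and 7 fell, Dpt most at -0.73 (4 of the 7 under median-of-ratios scaling), and the summed value was 5580 to 5605 against 7252 to 7357. Of 5 pericyte and smooth muscle genes of 14, Tagln rose by 0.36 and 4 fell, with sums of 84.3 to 88.3 against 112 to 113.9. With the length trend removed 2 rose and 2 fell: Cspg4 turned to 0.13, and Abcc9 went from -0.40 to -0.04 and did not pass (adjusted p = 0.306). Under median-of-ratios scaling Cspg4 was at 0.03 and did not pass.

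Blood and liver transcripts were higher and muscle transcripts lower in the same libraries. Of all tested genes 37.9% were called higher and 60.1% lower. The 5 erythroid genes with values of 17 rose (median 0.91, Hbb-y by 1.42), summing to 220.3 to 226.4 against 94.7 to 98.9, and the 10 tested liver genes of 13 rose (median 3.48, Alb by 5.98), summing to 119.1 to 119.7 against 8.87 to 9.06. Of 18 skeletal muscle genes 17 fell (median -0.53, Ckm with -1.08) and Actn3 rose by 0.70. The 10 endothelial genes, Eng and Cldn5 included, summed to 277 to 285.6 in the Noggin-deficient libraries against 221.1 to 222.4. Part of that difference is thus the rise of these members themselves. The part of these cell types in the rise of Eng, Cldn5 and Vcam1 was not tested.

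The genes nearest to each member were taken by the root mean square distance between log2 profiles over the 5 libraries, each centred on its own mean, among 3761 tested genes with more than a predicted-gene name. Nearest to Eng were Twist1, Birc5 and Nkd2, at 0.00738, 0.00784 and 0.0112. Nearest to Cldn5 were Crabp2, Gpr162 and Igfbp2, at 0.0152, 0.0158 and 0.0163. Nearest to Vcam1 were Heph, Usf1 and Igsf8, at 0.0085, 0.00915 and 0.00936. Within a distance of 0.05 lay 211 genes for Eng, 279 for Vcam1 and 29 for Cldn5, so many genes share these profiles, and Eng and Vcam1 were themselves 0.0596 apart.

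Other scalings of whole libraries made the members' rises larger. Their factors came from the listed genes, which already differed between the groups and were more often lower in the Noggin-deficient samples. The median-of-ratios factors were 0.93 to 0.94 for the Noggin-deficient libraries and 1.13 for wild type. Under either scaling a rise could thus not turn, and falls shrank by construction. A fall that did not pass under them is therefore not shown to be absent. Libraries scaled by median-of-ratios factors gave 0.73 for Eng, 0.92 for Cldn5 and 0.65 for Vcam1, and upper-quartile scaling 0.66, 0.85 and 0.58. Median-of-ratios scaling moved the median over all tested genes from -0.28 to -0.03, and raised the share of calls that were higher from 38.7% to 54.5%. Under it the endothelial median was 0.73, with 8 rises and 1 fall.

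**Figure D5:**
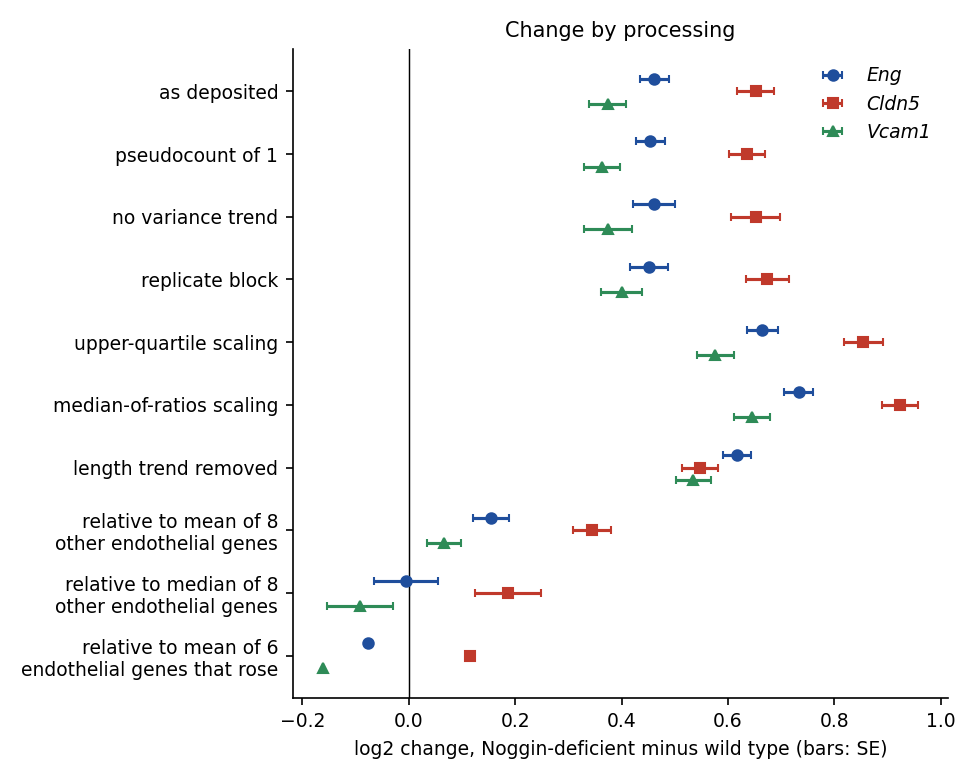
Log2 change (Noggin-deficient minus wild type, horizontal axis) of Eng, Cldn5 and Vcam1 under 10 ways of processing, with bars for SE where a test was made. The values run from 0.36 to 0.92 in the first 7. Against other endothelial genes Cldn5 is above 0 for all 3 references. Eng and Vcam1 are above 0 for the mean of 8 genes but not for the other references. None of the references was adjusted for transcript length.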

How the data were processed

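Values were deposited by the authors as 1 table per sample with 4743 genes, and were treated here as a normalized expression signal. STAR 2.4.2a, DESeq2 and mm9 appear in the submitters' processing notes, with no role. How reads were counted, the unit, the scaling and the rule behind the choice of genes are likewise not given in the sources used here. Depth is unknown, so no counting interval was possible. Libraries were made with a stranded mRNA kit and 11 PCR cycles, per the labels. Whether counting used strand is not given. The 3' end of Eng overlaps Fpgs by 61 bases and Vcam1 overlaps Gm43109 by 1238 bases, both on the other strand (GENCODE M21), and reads there could not be assigned here.

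limma 3.58.1 (R 4.3.3) with an intensity trend was run on log2(value + 0.25), which understates changes of low genes. Genes had to reach 0.5 in 2 or more libraries, which kept 3913 and left out 830, with Benjamini-Hochberg adjustment and calls at 0.05. Listed values summed to 92210 to 93695 in the Noggin-deficient and 100792 to 102783 in the wild type libraries. Lengths are those of the longest coding transcript (GENCODE M21, matched for 94.1% of genes), and the trend was removed by loess. The code was tested on simulated data.

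The members and the gene lists were chosen with earlier results of these data known. 2 genes of the lists are not reported here and were left out of their counts. The text names the members, Nog, the largest called rise and fall of each list, members of the 5 lists closest to the 3 genes, and the 3 nearest genes by profile; Acta1, Krt5, Hey1, Hey2, Angpt2, Gja4, Reln, Spi1, Fcgr1, Cspg4 and Abcc9 were added after their values were seen. Alternatives were other pseudocounts, filters, scalings and variance models, a 1.5-fold test, a replicate block and leaving out each library.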

Additional observations from a re-analysis of the deposited data

How the results depend on the processing

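The changes of Eng, Cldn5 and Vcam1 kept their direction and their call under 15 of 16 other ways of processing, with limma adjusted p from 1.55e-07 to 0.000269 for Eng, from 5.4e-07 to 0.000158 for Cldn5 and from 1.49e-06 to 0.000741 for Vcam1. The exception was the test against a 1.5-fold change, in which the estimates of 0.46, 0.65 and 0.37 did not pass. Median-of-ratios and upper-quartile scaling could only enlarge a rise, so they did not test the direction. With groups that did not overlap, other pseudocounts, filters and variance models and leaving out a library could not turn it either. In the main fit 98% of all tested genes were called, so a kept call was likely for any gene and sets no member apart. Relative to other endothelial genes, alternatives added after the data were seen, the result turned on the reference: against the mean of 8 genes Vcam1 was at 0.067 and no longer passed; against their median Eng was at -0.005 and Vcam1 at -0.092; and against the mean of the 6 that rose, with no test, Eng was at -0.076, Vcam1 at -0.162 and Cldn5 at 0.115. Leaving out 1 library gave 0.45 to 0.47 for Eng, 0.63 to 0.67 for Cldn5 and 0.36 to 0.40 for Vcam1.

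With the length trend removed, the Eng to Cldn5 difference turned from -0.19 to 0.069 and the Cldn5 to Vcam1 difference went from 0.28 to 0.013. The latter was 0.24 to 0.31 when libraries were left out. Of the endothelial genes, 8 rose and 2 fell, against 1 and 0 in the test against a 1.5-fold change, where fewer pass by construction, and 1 fall under median-of-ratios scaling and 1 with the length trend removed.

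The groups share the numbers 1 and 2 in the labels, which do not say that a number marks a litter or day. Across genes the difference between libraries 1 and 2 correlated at -0.11 between the groups. With the replicate number as a block, the changes were 0.45, 0.67 and 0.40, and 3772 of 3913 genes were called against 3836. Without a wild type library 1 wild type sample remains, assumed to vary like the other group. The unknown depth limits what can be said of low genes.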
